A study of Homo sapiens with 9 samples.

Results

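The genes described are 42 genes of DNA replication and mitosis, listed by symbol and matched through their Ensembl identifiers. All 42 were found among the 19317 genes of the count table, and all 42 passed the filter on low counts. They fall into 8 genes of replication licensing, 7 of the replication fork and nucleotide supply, 2 transcription factors, 7 cyclins, cyclin-dependent kinases and CDC25 phosphatases, 8 mitotic kinases and checkpoint genes, 8 of the spindle, kinetochore and cytokinesis, and 2 of chromosome structure. The list itself uses no measured level, but it was chosen with earlier results of these data known.

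RNA was sequenced from HepG2, an established human line grown from a hepatocellular carcinoma and much used as a stand-in for liver cells. All 3 groups, of 3 samples each, were HepG2 cells of wild-type genotype in medium with 10% serum and 1% antibiotics. DNL cells had T0901317 at 10 µM and insulin at 10 µg/ml in DMEM for 1 week, as a model of de novo lipogenesis, and T0901317 is an agonist of the liver X receptors. OA cells had oleic acid at 25 µM, dissolved in 11% bovine serum albumin, in DMEM for 6 hours. WT cells were kept in RPMI, with no compound added and no albumin carrier. Medium, compound and duration therefore differ together between either treatment and WT, and their shares in any difference cannot be told apart. The labels do not state that the 3 samples of a group were separate cultures, so each p-value weighs a difference against a spread that may be technical.

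A cell copies its DNA in S phase and divides it in mitosis, and the genes for each step are transcribed in waves. Origins of replication are licensed when ORC, CDC6 and CDT1 load the ring of MCM2, MCM3, MCM4, MCM5, MCM6 and MCM7 onto DNA. E2F factors drive many replication genes, and later the complex of MYBL2 and FOXM1 with MuvB drives mitotic genes through the CHR element and CCAAT boxes of their promoters. Adult hepatocytes rarely divide, while hepatoma lines cycle in culture, and transcripts of these genes are commonly used to read proliferation. In bulk RNA, a smaller number of cycling cells and less transcript per cycling cell cannot be told apart.

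The promoters were searched for E2F-type, CHR and CCAAT letters, and 3 mitotic and 3 replication members were chosen for display. RefSeq windows of GRCh38.p14, which run 250 bases before to 50 bases after a gene's start, were found for 34 of the 42 members. Of 35116 windows the first listed for each gene was kept, which left 27305. Other starts of the same gene were not searched. No window was found for BIRC5, TTK, FOXM1, TPX2, CDK2, MCM4, AURKA and MCM5. Printed below are the 200 bases before the start on the gene's own strand, with matches in capitals. Capitals mark letters that were searched for on both strands. The CHR core was searched as TTTGAA and as the less common TTCGAA, and the box as CCAAT, which reads ATTGG on the opposite strand. The E2F-type core was searched as TTCCCGC, which reads GCGGGAA on the opposite strand, and in another form as TTGGCGC, whose reverse form is GCGCCAA. PLK1 lies at chr16:23678689-23678888, plus strand, CDC20 at chr1:43358781-43358980, plus strand and KIF11 at chr10:92592930-92593129, plus strand. MCM3 lies at chr6:52284743-52284942, minus strand, PCNA at chr20:5126623-5126822, minus strand and CDT1 at chr16:88803589-88803788, plus strand.
PLK1: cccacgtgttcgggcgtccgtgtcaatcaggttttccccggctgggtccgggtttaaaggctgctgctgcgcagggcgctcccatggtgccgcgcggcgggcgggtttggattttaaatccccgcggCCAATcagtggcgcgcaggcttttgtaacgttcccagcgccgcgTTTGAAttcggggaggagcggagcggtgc
CDC20: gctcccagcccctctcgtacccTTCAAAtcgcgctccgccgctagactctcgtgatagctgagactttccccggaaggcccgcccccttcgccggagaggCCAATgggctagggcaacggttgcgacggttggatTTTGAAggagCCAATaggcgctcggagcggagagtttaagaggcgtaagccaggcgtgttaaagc
KIF11: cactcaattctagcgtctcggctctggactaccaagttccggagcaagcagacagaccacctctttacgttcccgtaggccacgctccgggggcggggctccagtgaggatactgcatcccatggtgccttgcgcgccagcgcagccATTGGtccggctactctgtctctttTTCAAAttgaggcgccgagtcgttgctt
MCM3: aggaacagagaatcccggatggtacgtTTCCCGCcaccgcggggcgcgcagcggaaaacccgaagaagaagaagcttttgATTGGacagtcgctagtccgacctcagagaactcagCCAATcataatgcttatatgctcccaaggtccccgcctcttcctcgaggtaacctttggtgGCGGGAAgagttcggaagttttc
PCNA: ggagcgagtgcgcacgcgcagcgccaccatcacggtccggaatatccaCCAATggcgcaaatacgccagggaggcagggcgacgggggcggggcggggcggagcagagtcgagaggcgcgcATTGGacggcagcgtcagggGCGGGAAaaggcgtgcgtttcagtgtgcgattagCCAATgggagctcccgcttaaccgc
CDT1: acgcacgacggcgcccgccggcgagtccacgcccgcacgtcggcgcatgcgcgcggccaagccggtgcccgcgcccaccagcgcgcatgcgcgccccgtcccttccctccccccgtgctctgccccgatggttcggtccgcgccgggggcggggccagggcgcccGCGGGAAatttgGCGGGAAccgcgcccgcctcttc

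Within those stretches each of the mitotic genes PLK1, CDC20 and KIF11 held a CHR core, and each of the replication genes MCM3, PCNA and CDT1 held an E2F-type core. Over the full windows, an E2F-type core was present in 10 of 13 licensing and fork members (76.9%) and in 1 of 12 members of the kinase and spindle groups (8.33%). It was present in 9.33% of all 27305 windows kept, 1 for each gene, and in 12.5% of the 15294 windows of genes in the count table. A CHR core was present in 2 of 13 licensing and fork members (15.4%) and in 9 of 12 kinase and spindle members (75%). It was present in 16.6% of all windows and in 13.5% of those of genes in the count table. A CCAAT box was found in 27 of 34 member windows (79.4%), against 35.7% of all windows and 36.5% of those of genes in the count table. An E2F-type match of the form GCGCCAA can share letters with a CCAAT box, which occurred in the windows of ECT2 and MCM7. Windows of MCM2 and CENPE held none of these letters. These matches describe the windows and are not measured binding sites.

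**Figure D1:**
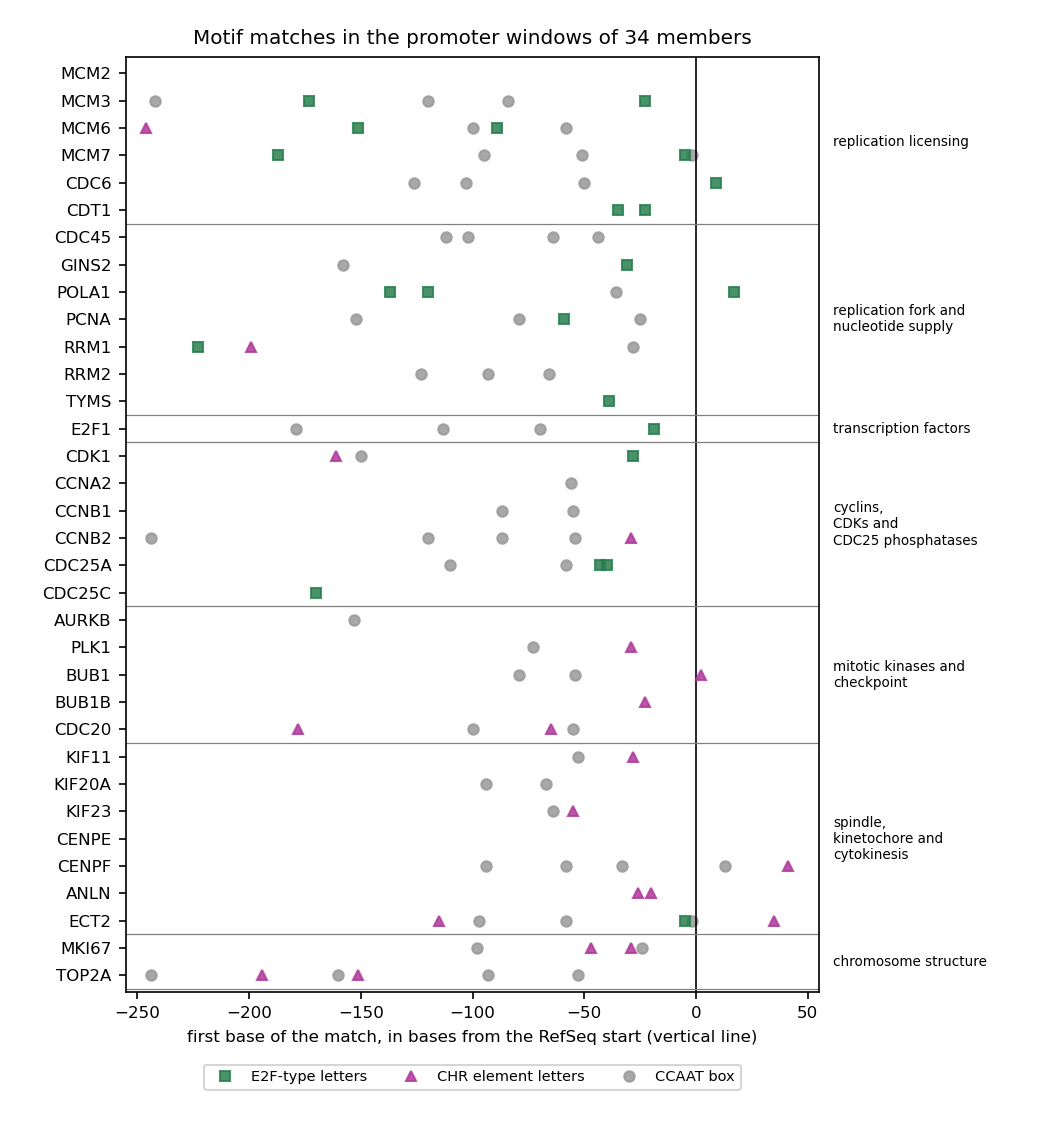
Matches to the E2F-type, CHR and CCAAT letters in the promoter windows of 34 members, 1 line a gene ordered by role, with the first base of each match in bases from the RefSeq start on the horizontal axis. E2F-type squares are in 10 of 13 licensing and fork windows and CHR triangles in 9 of 12 kinase and spindle windows.

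Levels are in CPM, counts set to a common library total after scaling by the trimmed mean of M values, and run over samples 1 to 3 of each group in order. Tests are from edgeR's quasi-likelihood model of all 9 libraries, with Benjamini-Hochberg adjustment over 13636 genes and calls at an adjusted p under 0.05. Any 2 of the comparisons share the samples of 1 group, so their values are given side by side and not as independent evidence. Library totals ran between 7836520 and 43043347 estimated counts, with OA replicate 3 the shallowest. One signal set the OA libraries apart from each other. COL1A1, a fibroblast collagen, had 0.647, 0.399 and 0.706 CPM in DNL, 19.3, 85 and 537 CPM in OA, and 0.99, 0.948 and 0.622 CPM in WT. COL1A2 had 10.2, 41.1 and 259.6 CPM in OA, while all 3 libraries of DNL and of WT were at 0. The 7 fibroblast markers summed to between 3.42 and 3.66 CPM in DNL, 37.0 and 876 CPM in OA, and 11.2 and 15.1 CPM in WT, and LUM was at 0 in DNL, in WT and in OA replicate 1. Of the 6 fibroblast markers tested in OA against WT, 2 were called higher, 1 was called lower and 3 were not called. The log2 fold change was above 0 in 5 of them and below 0 in 1, with a median of 4.33. In DNL against OA 3 were called lower and 0 higher, and all 6 had log2 differences below 0. The endothelial markers summed to at most 6.92 CPM in any library. The 6 leukocyte markers summed to between 1613 and 1704 CPM in DNL, 1057 and 1092 CPM in OA, and 976 and 988 CPM in WT. Of them CD3E was at 0 in all libraries, while LYZ alone held 936 to 1670.1 CPM. In DNL against WT 3 leukocyte markers were tested, and 1 was higher and 1 lower. The 10 hepatocyte and HepG2 markers were all detected in every library, with summed levels of 78603 to 80441 CPM in DNL, 14973 to 17043 CPM in OA and 43890 to 45572 CPM in WT, and their part in the results on the members was not tested. OA was also reduced to its replicate 1, the library with the least collagen. The members' median log2 fold change less that of all genes was then 0.99 in OA against WT and -0.89 in DNL against OA. With all libraries these values were 0.91 and -0.76.

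Compared with WT, OA cells had more transcript of most of the 42 members. Of the 42 members 36 were higher in OA, beside 30.4% of all genes tested, and 0 were lower, beside 29.7%. In either direction that is 36 of 42, beside 60% of all genes. The members not called were MCM6, RRM2, CCNB2, AURKA, BUB1 and BIRC5. The median log2 fold change of the members was 0.88, beside -0.03 over all genes. In 34 members the OA values lay wholly above the WT values and in 0 wholly below, beside 4433 and 4524 of the 13636 genes tested. In either direction the groups did not overlap in 81% of members and in 65.7% of all genes. A rise of at least 2-fold was called in 17 members, beside 8.88% of all genes, and a fall of that size in 0, beside 7.95%.

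Between DNL and WT the members divided. Higher in DNL were 16 members, beside 27.1% of all genes, and lower were 12, beside 26.8%, so that 28 were called in all, beside 53.8%. The groups did not overlap in 32 members, beside 64.7% of all genes. The members' median log2 fold change was 0.09, beside -0.02 over all genes. Higher by at least 2-fold was 1 member, the helicase cofactor CDC45, beside 7.21% of all genes, and lower by that much were 0, beside 5.07%. Of the 15 licensing and fork members 10 were higher and 1 was lower, while of the 16 kinase and spindle members 1 was higher and 8 were lower. Scaling by library totals in place of the trimmed mean moved the median of all genes by -0.17 and the share of calls that were higher to 32.2%, against 50.3% in the fit reported. Under that scaling 13 members rose and 18 fell in DNL, beside 2505 and 5265 of all 13636 genes. The members' median was then -0.075, which turns its direction.

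DNL cells had less of these transcripts than OA cells. Relative to OA, 36 members were lower in DNL, beside 30.9% of all genes, and 0 were higher, beside 31.9%, while 62.8% of all genes were called in either direction. The groups did not overlap in 35 members, beside 66.2% of all genes. Not called were MCM6, POLA1, PCNA, RRM2, TYMS and CCNB2. The members' median log2 fold change was -0.75, beside 0.01 over all genes, and 13 members were lower by at least 2-fold, beside 9.94% of all genes, and 0 higher by that much, beside 10.1%. All 16 kinase and spindle members were lower in DNL, against 10 of the 15 licensing and fork members. Scaling by library totals moved the median of all genes by -0.23 and the share of calls that were higher to 33.9%, against 50.8%, and the members' median to -0.98.

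**Figure D2:**
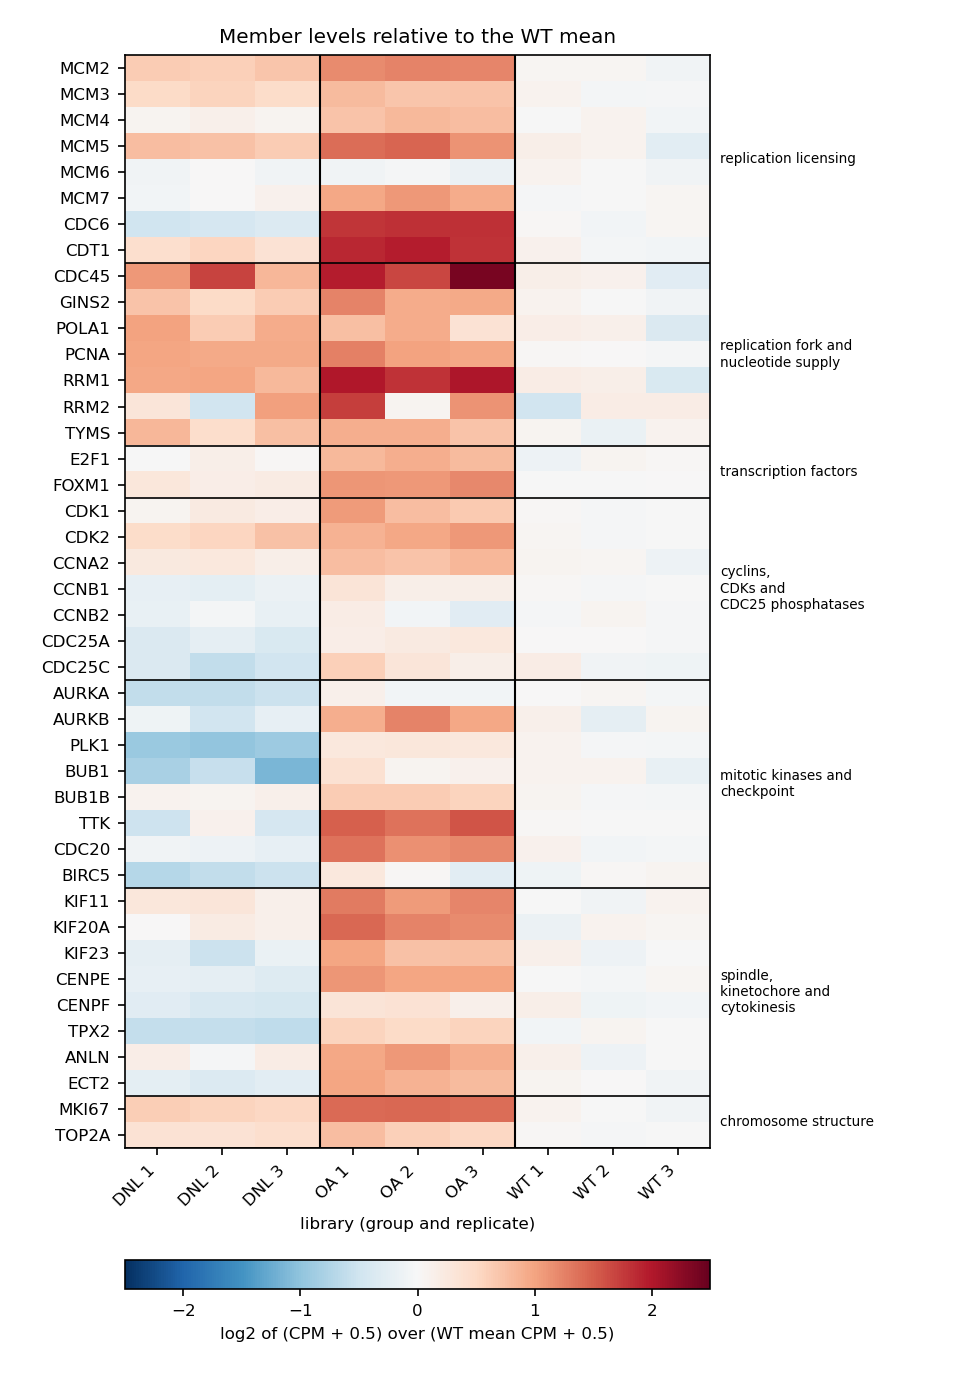
Each cell is the log2 of a library's level over the mean of the WT samples, with 0.5 CPM added to both, for the 42 members (lines, ordered by role) in the 9 libraries (columns). The OA columns are red for most members, while the DNL columns are red for fork genes other than RRM2 and blue for PLK1, AURKA, BUB1 and TPX2.

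**Figure D3:**
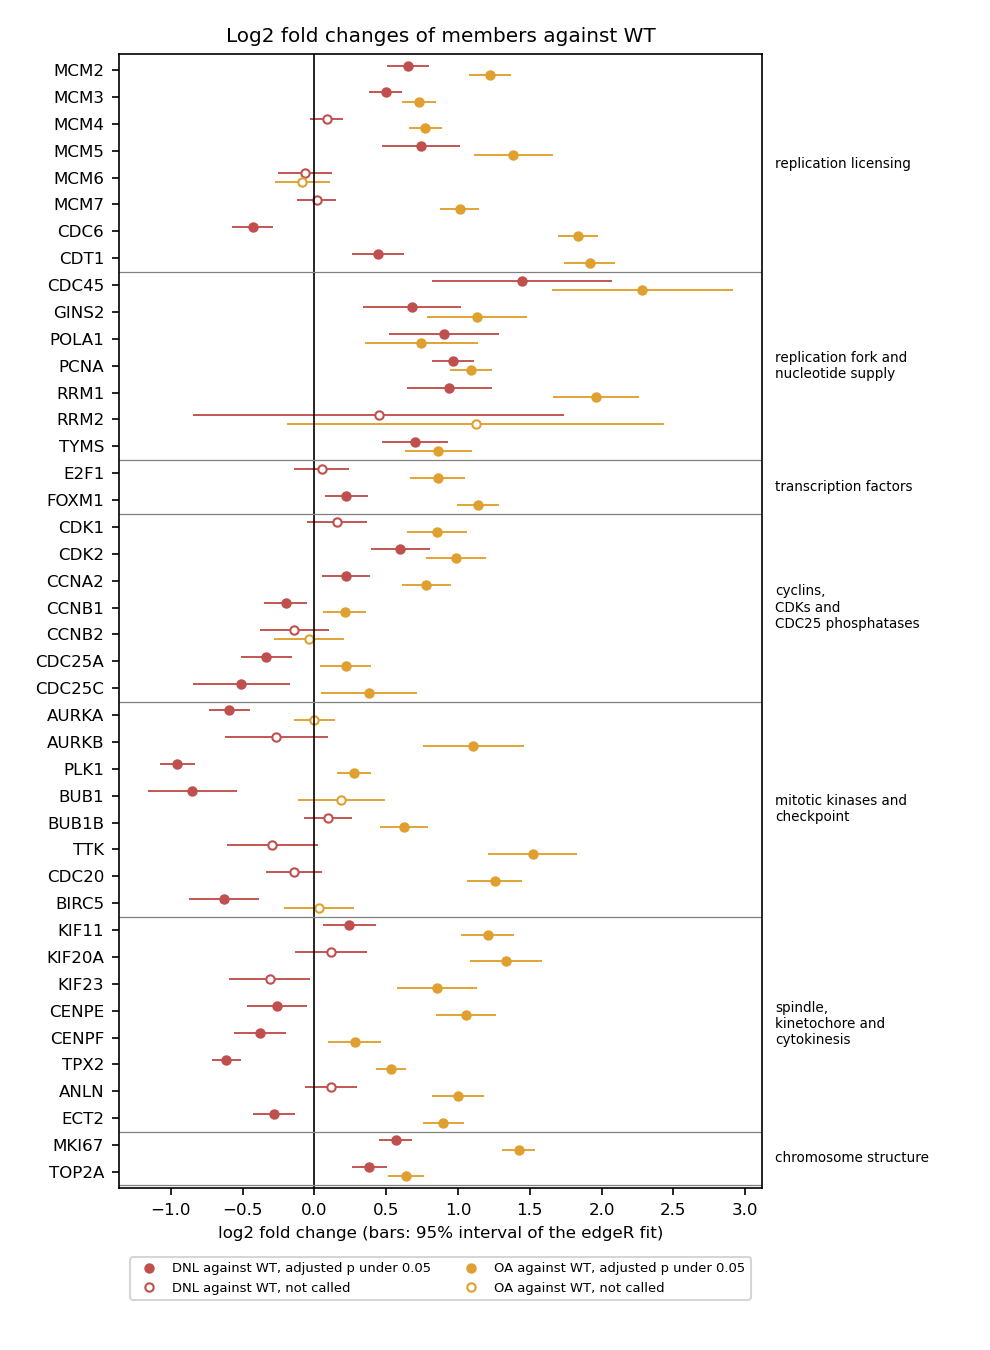
Log2 fold change with 95% interval for every member in DNL against WT (red) and OA against WT (yellow), ordered by role, with filled points at an adjusted p under 0.05. All 36 filled OA points lie above 0, while the filled DNL points lie on both sides, between PLK1 at -0.95 and CDC45 at 1.45.

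Of the 8 licensing members, 7 were higher in OA than in WT (87.5%, beside 30.4% of all genes). In DNL against WT 4 rose (50%, beside 27.1%) and 1 fell (12.5%, beside 26.8%). The loading factors CDC6 and CDT1 had higher folds in OA than any MCM subunit. CDC6, the ATPase that helps load the MCM ring (chromosome 17, 40287633 to 40304657), had 18, 19 and 20.2 CPM in DNL, 90.3, 92.7 and 92.2 CPM in OA, and 26.2, 24.3 and 26.5 CPM in WT. The 3 groups did not overlap, with OA far above and DNL below the others. CDC6 was 3.57-fold higher in OA than in WT (adjusted p = 1.35e-10) and fell by 0.43 on the log2 scale in DNL relative to WT (adjusted p = 1.26e-04), the only licensing member to fall. Between DNL and OA its log2 difference of -2.27 (SE 0.0674, adjusted p = 1.56e-11) was the lowest of all 42 members. CDT1, which brings the MCM ring to origins and is destroyed in S phase (chromosome 16, 88803213 to 88809258), had 21.8, 24 and 20.9 CPM in DNL, 61.8, 64.7 and 58.1 CPM in OA, and 17.5, 15.7 and 15.5 CPM in WT. Here DNL lay above WT and well below OA. CDT1 was 3.78-fold higher in OA (adjusted p = 7.54e-10) and 1.36-fold higher in DNL (adjusted p = 5.34e-04), each relative to WT. CDC6 and CDT1, partners in loading, thus had opposite calls in DNL against WT and the same call in OA against WT.

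Of the 6 MCM subunits, which form 1 ring, 5 were higher in OA than in WT, beside 30.4% of all genes. In DNL 3 were higher than in WT, beside 27.1%. MCM2 had 36.2, 35 and 37.6 CPM in DNL, 52.9, 55.1 and 54.2 CPM in OA, and 23.8, 23.9 and 21.6 CPM in WT. MCM5 had 17.2, 16.8 and 15.6 CPM in DNL, 26.7, 28.1 and 22.2 CPM in OA, and 10.9, 10.6 and 8.12 CPM in WT. For both subunits the 3 groups were separate, in the order OA, DNL, WT. MCM2 was 2.34-fold higher in OA than in WT (adjusted p = 7.28e-09) and 1.57-fold higher in DNL than in WT (adjusted p = 3.17e-06), and MCM5 2.61-fold (adjusted p = 8.77e-07) and 1.67-fold (adjusted p = 2.58e-04). MCM3 followed the same order, with log2 fold changes of 0.73 in OA and 0.50 in DNL, each relative to WT and each called. MCM4 and MCM7 were higher in OA, by 0.77 and 1.01 on the log2 scale, and were not called in DNL against WT (adjusted p = 0.192 for MCM4 and 0.843 for MCM7).

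MCM6 was the exception among licensing genes and the lowest member in OA against WT. Its levels were 17, 18.2 and 16.9 CPM in DNL, 17.1, 17.7 and 16.3 CPM in OA, and 19.2, 18 and 17 CPM in WT. All 3 groups overlapped. The log2 difference between OA and WT was -0.08, with a 95% interval of -0.28 to 0.11, and between DNL and WT it was -0.06, with an interval of -0.25 to 0.13. Between DNL and OA it was 0.02, with an interval of -0.18 to 0.22. Scaling by library totals gave log2 -0.23, adjusted p = 0.0370 for DNL against WT. The interval for OA against WT lies below the log2 differences of the other 5 subunits, a difference between genes that was not itself tested.

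Per kilobase of the longest protein-coding transcript in GENCODE release 29, the subunits stood at different levels. In OA, MCM6 had 4.55 ± 0.20 CPM per kilobase, MCM5 7.26 ± 0.87, MCM2 14.9 ± 0.30, MCM4 29.97 ± 1.14, MCM7 34.9 ± 1.93 and MCM3 37.4 ± 1.34 (SD, n = 3). Samples of MCM7 (33.4 to 37.1) and MCM3 (36.3 to 38.9) overlapped. In DNL, MCM6 had 4.65 ± 0.19 CPM per kilobase and MCM5 4.69 ± 0.24, which overlapped, while MCM2 had 10.01 ± 0.36, MCM7 17.6 ± 1.17, MCM4 18.6 ± 0.38 and MCM3 31.8 ± 1.17. DNL samples of MCM7 (16.5 to 18.8) and MCM4 (18.4 to 19.1) also overlapped. In WT, MCM5 had 2.79 ± 0.43 CPM per kilobase, MCM6 4.84 ± 0.29, MCM2 6.38 ± 0.36, MCM7 17.4 ± 0.48, MCM4 17.6 ± 0.91 and MCM3 22.5 ± 1.18, and MCM7 and MCM4 overlapped. The level of MCM5 was thus above that of MCM6 in every OA sample and below it in every WT sample. With the median transcript length in place of the longest, MCM5 was still above MCM6 in OA and below it in WT, on the group means, but other parts of the order changed. By that length MCM5 (5.58 ± 0.28) did not overlap MCM6 in DNL, and the mean of MCM4 was above that of MCM3 in OA (39.7 and 38.3) and in WT (23.25 and 23.1).

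At the replication fork and in nucleotide supply, 6 of 7 members (85.7%) were higher in DNL than in WT, beside 27.1% of all genes. In OA against WT 6 of 7 were also higher, beside 30.4%, and RRM2 was the exception in both. PCNA, the sliding clamp that tethers DNA polymerases (chromosome 20, 5114953 to 5126626), had 139.8, 137 and 136 CPM in DNL, 170.1, 142 and 139 CPM in OA, and 71.7, 70.8 and 68.8 CPM in WT. DNL and OA overlapped, and both lay above WT with no overlap. PCNA was 1.95-fold higher in DNL than in WT (adjusted p = 8.15e-08) and 2.13-fold higher in OA than in WT (adjusted p = 2.26e-08). Between DNL and OA the log2 difference was -0.13, with a 95% interval of -0.27 to 0.02 (adjusted p = 0.115), and it was called when OA replicate 3 was left out (adjusted p = 0.0396). It was also called with scaling by library totals, at log2 -0.36, adjusted p = 4.39e-04, and with OA replicate 1 as the only OA library, at log2 -0.31, adjusted p = 7.49e-04. POLA1, the catalytic subunit of the primase-polymerase that starts each strand, had 17.5, 13.4 and 16.5 CPM in DNL, 14.6, 16.4 and 10.9 CPM in OA, and 9.51, 9.34 and 6.51 CPM in WT. It showed the highest difference of any member between DNL and OA, 0.16, with an interval of -0.23 to 0.55, and the groups overlapped. Relative to WT it was higher in DNL by 0.90 (adjusted p = 8.56e-04) and in OA by 0.75 (adjusted p = 0.00324) on the log2 scale.

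CDC45 and GINS2, which with the MCM ring make up the moving helicase, had low levels. CDC45 had 4.16, 6.65 and 3.41 CPM in DNL, 8.05, 6.49 and 10.9 CPM in OA, and 1.93, 1.86 and 1.32 CPM in WT. It showed the largest rise of any member in both comparisons with WT, 4.87-fold in OA (adjusted p = 1.79e-05) and 2.73-fold in DNL (adjusted p = 8.98e-04). DNL and OA overlapped in CDC45, and the call between them (log2 -0.84, adjusted p = 0.0185) was lost without DNL replicate 1 (adjusted p = 0.0681), DNL replicate 3 (0.0780) or OA replicate 3 (0.0716), without both of the shallowest libraries (0.281), or with OA replicate 1 as the only OA library (0.0901). GINS2 rose by 1.13 in OA and 0.68 in DNL on the log2 scale, each relative to WT. Its lower level in DNL than in OA (log2 -0.45, adjusted p = 0.0236) was not called without DNL replicate 2 (adjusted p = 0.0802), DNL replicate 3 (0.0504) or OA replicate 1 (0.102), nor without both of the shallowest libraries (0.203). Thinned to the shallowest total, the rise of GINS2 in DNL was not called (log2 0.42, adjusted p = 0.101).

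The genes that supply deoxynucleotides gave an uneven picture. RRM1, the large subunit of ribonucleotide reductase, had 32.2, 32.5 and 28.9 CPM in DNL, 66.2, 57.7 and 67.2 CPM in OA, and 18.5, 17.9 and 12.3 CPM in WT. The groups were separate in the order OA, DNL, WT, with a 3.89-fold higher level in OA (adjusted p = 2.17e-07) and a 1.92-fold higher level in DNL (adjusted p = 1.15e-04), each relative to WT. RRM2, the small subunit that limits the enzyme in S phase, had 21.1, 12 and 35 CPM in DNL, 57.2, 17.9 and 37.4 CPM in OA, and 12, 19.4 and 19.4 CPM in WT. Samples of the same group lay far apart, and all groups overlapped. RRM2 had the highest coefficient of variation of all members in every group, 51.1% in DNL, 52.4% in OA and 25.1% in WT, beside member medians of 5.61%, 7.6% and 5.97%. No comparison was called for it (adjusted p = 0.121 for OA against WT, 0.522 for DNL against WT and 0.32 for DNL against OA), although without OA replicate 2 it was higher in OA than in WT (log2 1.5, adjusted p = 0.0404). TYMS, thymidylate synthase, rose by 0.70 (adjusted p = 1.28e-04) in DNL and 0.86 (adjusted p = 1.95e-05) in OA on the log2 scale, each relative to WT.

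The 2 transcription factors rose in OA. E2F1, an activator of replication genes, had 17.1, 19.2 and 17.6 CPM in DNL, 30.6, 32.8 and 30.4 CPM in OA, and 15.9, 18.3 and 17.8 CPM in WT. DNL and WT overlapped and OA lay above both, 1.81-fold over WT (adjusted p = 2.51e-06). FOXM1, an activator of mitotic genes, had 27.9, 25.5 and 26.4 CPM in DNL, 49.4, 49.1 and 53 CPM in OA, and 22.6, 22.9 and 23.1 CPM in WT. It was 2.2-fold higher in OA than in WT (adjusted p = 1.67e-08). Its 1.17-fold higher level in DNL than in WT (adjusted p = 0.0145) was not called without DNL replicate 1 (adjusted p = 0.0572), nor with scaling by library totals (log2 0.056, adjusted p = 0.511) or thinning to the shallowest total (log2 0.086, adjusted p = 0.516).

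Of the 7 cyclins, kinases and CDC25 phosphatases, 6 were higher in OA than in WT (85.7%, beside 30.4% of all genes). In DNL against WT 2 rose (28.6%, beside 27.1%) and 3 fell (42.9%, beside 26.8%), the rises thus near the share of all genes. CDK2, the kinase partner of cyclins E and A, had 20.7, 21.8 and 25.2 CPM in DNL, 27.6, 29.6 and 31.9 CPM in OA, and 15.4, 14.5 and 14.8 CPM in WT, which put the groups apart in the order OA, DNL, WT. It was 1.98-fold higher in OA (adjusted p = 1.51e-06) and 1.51-fold higher in DNL (adjusted p = 1.53e-04), each relative to WT. With OA replicate 1 as the only OA library, its difference between DNL and OA was not called (log2 -0.29, adjusted p = 0.0991, against -0.39, adjusted p = 0.00295 with all libraries). CCNA2, cyclin A, had 28.3, 28.6 and 26.5 CPM in DNL, 41, 39.5 and 42.8 CPM in OA, and 25, 24.7 and 21.7 CPM in WT. Its 1.17-fold higher level in DNL than in WT (adjusted p = 0.0287) was not called without DNL replicate 1 (adjusted p = 0.0712), DNL replicate 2 (0.0675) or WT replicate 3 (0.134). With scaling by library totals that difference was log2 0.056, adjusted p = 0.557, and thinned to the shallowest total it was log2 0.20, adjusted p = 0.0884. In OA, CCNA2 was 1.72-fold higher than in WT (adjusted p = 2.03e-06). CDK1, the kinase that drives entry into mitosis, had 26.2, 29.3 and 28.2 CPM in DNL, 52.7, 42.8 and 39.7 CPM in OA, and 25.3, 24.6 and 24.9 CPM in WT. OA lay above DNL and WT with no overlap, 1.81-fold over WT (adjusted p = 5.79e-06), and the log2 difference of 0.16 between DNL and WT was not called (adjusted p = 0.183).

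CCNB1, the mitotic cyclin B that activates CDK1, had 32.8, 32.1 and 34.2 CPM in DNL, 47.9, 42.2 and 41.8 CPM in OA, and 38.9, 37.1 and 37.9 CPM in WT. The groups did not overlap, yet the differences were small. It was 1.16-fold higher in OA than in WT (adjusted p = 0.0185), a call lost without OA replicate 1 (adjusted p = 0.0873), WT replicate 2 (0.0715) or WT replicate 3 (0.0578), or on thinning to the shallowest total (log2 0.18, adjusted p = 0.149). With both of the shallowest libraries left out, which leaves OA replicate 2 alone, CCNB1 was higher in OA by 0.15 on the log2 scale. In DNL it fell by 0.20 on the log2 scale relative to WT (adjusted p = 0.0250), which was not called without DNL replicate 1 (adjusted p = 0.0856), DNL replicate 2 (0.0952), WT replicate 1 (0.102) or WT replicate 3 (0.0629), or on thinning (log2 -0.12, adjusted p = 0.389). CCNB2, the other B-type cyclin here, had 15.6, 17.1 and 15.6 CPM in DNL, 20.1, 16.9 and 14.5 CPM in OA, and 17.3, 18.5 and 17.3 CPM in WT. No comparison was called for CCNB2 in the fit reported, and its log2 differences had 95% intervals of -0.28 to 0.21 for OA against WT, -0.38 to 0.10 for DNL against WT and -0.35 to 0.14 for DNL against OA. With scaling by library totals it was called lower in DNL than in WT (log2 -0.31, adjusted p = 0.0331) and than in OA (log2 -0.34, adjusted p = 0.0224).

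The CDC25 phosphatases remove the inhibitory phosphates from the kinases, CDC25A mainly at S phase entry and CDC25C at mitosis. CDC25A had 16.2, 18 and 16 CPM in DNL, 23.8, 24.5 and 25.3 CPM in OA, and 21.3, 21.3 and 20.6 CPM in WT. Levels in DNL lay below those in WT by 0.34 (SE 0.0813, adjusted p = 0.00357) on the log2 scale and those in OA above by 0.22 (SE 0.0816, adjusted p = 0.0343). The OA call for CDC25A was lost without OA replicate 2 (adjusted p = 0.0836) or 3 (0.0839), and without WT replicate 1 (0.0599), 2 (0.0720) or 3 (0.101). It was also lost without the filter on low counts (adjusted p = 0.0693). With both of the shallowest libraries left out, which leaves OA replicate 2 alone, the log2 difference for OA was 0.21. Thinned to the shallowest total, neither difference was called (log2 -0.27, adjusted p = 0.0744 for DNL and log2 0.26, adjusted p = 0.0693 for OA, each against WT). CDC25C had 6.87, 5.72 and 6.36 CPM in DNL, 13.9, 11.2 and 10.1 CPM in OA, and 10.3, 8.43 and 8.3 CPM in WT, and DNL lay below both other groups. Its log2 difference of -0.51 between DNL and WT (adjusted p = 0.0140) was not called without DNL replicate 2 (adjusted p = 0.0551) or WT replicate 1 (0.0810), or on thinning (log2 -0.39, adjusted p = 0.116). For CDC25C in OA against WT, the log2 difference of 0.38 (adjusted p = 0.0483) was not called without DNL replicate 1 (0.0514) or 3 (0.0613), OA replicate 1 (0.209) or 2 (0.0688), or WT replicate 2 (0.145) or 3 (0.154). Nor was it called without the filter on low counts (adjusted p = 0.0676). With OA replicate 2 as the only OA library the log2 difference was 0.30.

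Of the 8 mitotic kinases and checkpoint genes, 4 fell (50%, beside 26.8% of all genes) and 0 rose (beside 27.1%) in DNL against WT. In OA against WT 5 rose (62.5%, beside 30.4%) and 0 fell (beside 29.7%). PLK1, the polo-like kinase of mitotic entry and spindle assembly (chromosome 16, 23677656 to 23690367), had 39.8, 38.4 and 40.5 CPM in DNL, 91.7, 94 and 92.7 CPM in OA, and 81.3, 74.8 and 74.1 CPM in WT. The 3 groups were separate, with DNL far below WT and OA a little above it. PLK1 fell by 0.95 (SE 0.0551, adjusted p = 1.40e-08) on the log2 scale in DNL relative to WT, the lowest value of any member in that comparison, and was 1.21-fold higher in OA than in WT (adjusted p = 6.95e-04). AURKA, the Aurora kinase of centrosomes and spindle poles, had 41.8, 42.1 and 44.3 CPM in DNL, 70.8, 61 and 61.5 CPM in OA, and 64.7, 66.5 and 62.2 CPM in WT. OA and WT overlapped and DNL lay below both. AURKA fell by 0.59 (SE 0.0663, adjusted p = 7.02e-06) in DNL relative to WT on the log2 scale, while OA was 0.999-fold the WT level, with a 95% interval of -0.15 to 0.14 for the log2 difference.

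CDC20, the activator of the anaphase-promoting complex that the checkpoint holds back, had 17.1, 16.6 and 15.7 CPM in DNL, 47.6, 40.6 and 42.6 CPM in OA, and 19.6, 17.4 and 17.5 CPM in WT. It was 2.39-fold higher in OA than in WT (adjusted p = 7.26e-08), and between DNL and WT its log2 difference of -0.14 was not called (adjusted p = 0.193), but was with scaling by library totals (log2 -0.31, adjusted p = 0.00936). BIRC5, survivin, the passenger complex subunit that guides Aurora B, had 20.3, 22 and 23.1 CPM in DNL, 40.4, 34.2 and 28 CPM in OA, and 31.3, 34.6 and 35.2 CPM in WT. It fell by 0.63 (SE 0.112, adjusted p = 3.76e-04) on the log2 scale in DNL relative to WT, and OA overlapped WT with an interval of -0.21 to 0.27 for the log2 difference. AURKB, the kinase of that complex, was 2.15-fold higher in OA than in WT (adjusted p = 6.10e-05), with mean levels of 5.51 ± 0.762 in DNL, 14.3 ± 1.88 in OA and 6.66 ± 0.944 CPM in WT (SD, n = 3). Its difference between DNL and WT (log2 -0.26, adjusted p = 0.193) was called with scaling by library totals (log2 -0.43, adjusted p = 0.0358). The complex partners AURKB and BIRC5 thus had different calls in OA against WT, a difference between genes that was not itself tested.

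Of the spindle checkpoint genes, TTK and BUB1B rose in OA and BUB1 fell in DNL, each relative to WT. TTK, the kinase that starts checkpoint signalling at kinetochores, averaged 8.78 ± 2.26 in DNL, 30.5 ± 2.28 in OA and 10.6 ± 0.151 CPM in WT (SD, n = 3), 2.87-fold higher in OA than in WT (adjusted p = 1.11e-06). Between DNL and WT its log2 difference of -0.29 was not called (adjusted p = 0.111), but was without DNL replicate 2 (adjusted p = 0.00333), with scaling by library totals (log2 -0.46, adjusted p = 0.0187), with limma-voom (log2 -0.37, adjusted p = 0.0395) and thinned to the shallowest total (log2 -0.45, adjusted p = 0.0364). BUB1, a kinetochore kinase of the checkpoint, averaged 17.1 ± 3.47 in DNL, 34.9 ± 4.22 in OA and 30.5 ± 3.14 CPM in WT. It fell by 0.85 (SE 0.141, adjusted p = 2.87e-04) in DNL relative to WT on the log2 scale, and its log2 difference of 0.19 between OA and WT was not called (adjusted p = 0.265). BUB1B, which encodes the checkpoint inhibitor BUBR1, averaged 21.2 ± 0.376 in DNL, 30.5 ± 1.14 in OA and 19.8 ± 0.991 CPM in WT, higher in OA than in WT by 0.62 (adjusted p = 1.31e-05) on the log2 scale and not called in DNL against WT (log2 0.09, adjusted p = 0.32).

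**Figure D4:**
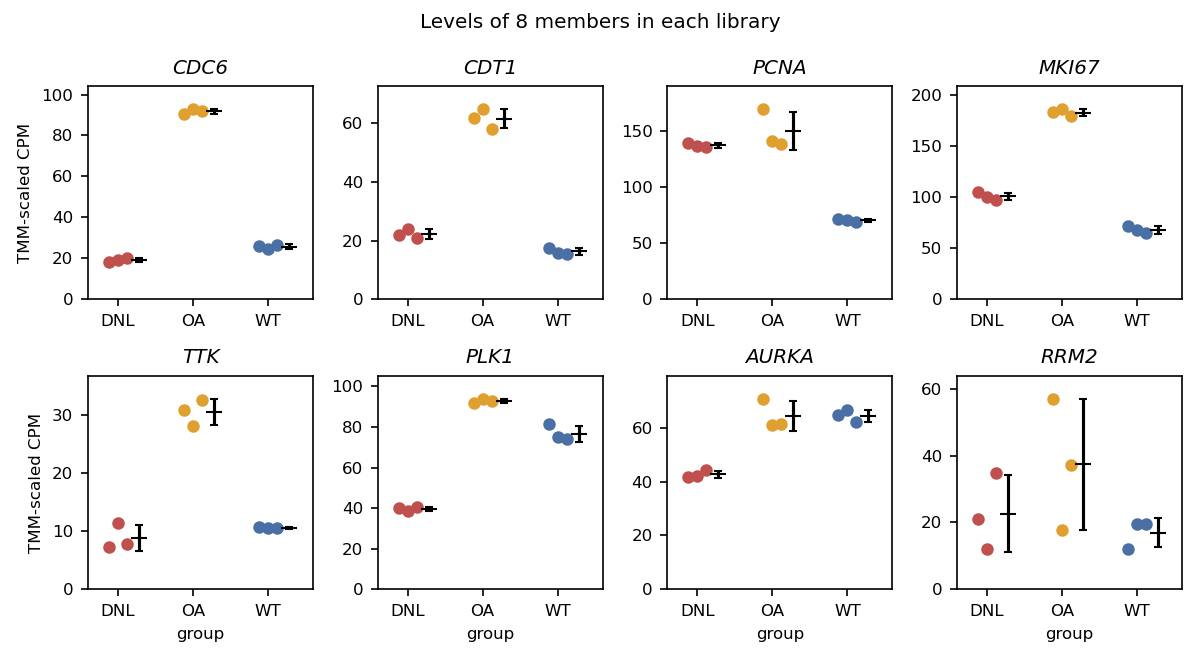
Levels of CDC6, CDT1, PCNA, MKI67, TTK, PLK1, AURKA and RRM2 in CPM, on axes that start at 0, in DNL, OA and WT. Points are the 3 samples of a group and black bars the mean and SD, CDC6 and CDT1 are highest in OA, the PCNA points of DNL and OA overlap, PLK1 is lowest in DNL and RRM2 is scattered in every group.

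All 8 spindle, kinetochore and cytokinesis members were higher in OA than in WT, beside 30.4% of all genes. All 8 were also lower in DNL than in OA, beside 30.9%. TPX2, which activates AURKA and nucleates spindle microtubules, averaged 74.7 ± 0.842 in DNL, 166 ± 4.51 in OA and 114 ± 5.23 CPM in WT (SD, n = 3). It rose by 0.53 (adjusted p = 6.40e-07) in OA and fell by 0.61 in DNL (adjusted p = 2.41e-07), each on the log2 scale relative to WT. KIF11, the kinesin that pushes spindle poles apart, had 27.7, 28.2 and 25 CPM in DNL, 56.5, 47.9 and 54 CPM in OA, and 22.7, 21.5 and 24.2 CPM in WT. It was 2.31-fold higher in OA than in WT (adjusted p = 7.50e-08) and the only member of the kinase and spindle groups higher in DNL than in WT, 1.18-fold (adjusted p = 0.0281). That DNL call was lost without DNL replicate 1 (adjusted p = 0.0760) or 2 (0.0733), without WT replicate 1 (0.0610) or 2 (0.109), and with scaling by library totals (log2 0.077, adjusted p = 0.479).

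The kinetochore proteins CENPE, a kinesin that carries chromosomes to the spindle equator, and CENPF, a large protein of the outer kinetochore, fell in DNL. CENPE averaged 9.16 ± 0.421 in DNL, 22.9 ± 1.19 in OA and 11 ± 0.411 CPM in WT (SD, n = 3), and CENPF 38.5 ± 2.06 in DNL, 60.5 ± 5.07 in OA and 50.1 ± 5.0 CPM in WT. CENPE was 2.08-fold higher in OA than in WT (adjusted p = 7.99e-07). Its fall of 0.26 on the log2 scale in DNL relative to WT (adjusted p = 0.0377) was not called with DESeq2 (adjusted p = 0.0716), with the 6 samples compared fitted alone (0.0639), or on thinning (log2 -0.22, adjusted p = 0.267). Nor was it called without DNL replicate 1 (adjusted p = 0.0620), 2 (0.0723) or 3 (0.111), OA replicate 2 (0.0508), or WT replicate 1 (0.0796), 2 (0.0586) or 3 (0.111). Without the filter on low counts it was not called either (adjusted p = 0.0516). CENPF was lower in DNL by 0.38 (SE 0.0838, adjusted p = 0.00196) on the log2 scale relative to WT. For CENPF the rise of 0.28 in OA (adjusted p = 0.0115) was not called without OA replicate 2 (adjusted p = 0.0617), WT replicate 2 (0.0585) or WT replicate 3 (0.0548).

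Of the cytokinesis genes, ECT2, the exchange factor that switches on RhoA at the cleavage furrow, averaged 40.7 ± 1.55 in DNL, 92.3 ± 6.23 in OA and 49.6 ± 2.92 CPM in WT (SD, n = 3). It rose by 0.90 (adjusted p = 1.19e-07) in OA and fell by 0.28 in DNL (adjusted p = 0.00300), each on the log2 scale relative to WT. ANLN, the furrow scaffold anillin, averaged 36.9 ± 3.13 in DNL, 68 ± 4.04 in OA and 34.1 ± 3.0 CPM in WT, 2.0-fold higher in OA than in WT (adjusted p = 3.78e-07). KIF20A and KIF23 are kinesins of the central spindle. KIF20A averaged 9.96 ± 0.72 in DNL, 23.1 ± 2.18 in OA and 9.19 ± 0.81 CPM in WT, and KIF23 averaged 8.82 ± 1.26 in DNL, 19.98 ± 1.92 in OA and 11 ± 1.03 CPM in WT. KIF20A rose by 1.33 (adjusted p = 4.72e-07) and KIF23 by 0.85 (adjusted p = 7.73e-05) in OA relative to WT on the log2 scale. In DNL against WT, the log2 differences of ANLN (0.11), KIF20A (0.11) and KIF23 (-0.31) were not called, although scaling by library totals called KIF23 lower (log2 -0.48, adjusted p = 0.00713).

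Both chromosome genes rose in DNL and in OA. MKI67, the proliferation antigen Ki-67 that coats mitotic chromosomes (chromosome 10, 128096659 to 128126385), had 105, 100.5 and 97.7 CPM in DNL, 183, 187 and 179 CPM in OA, and 72.3, 67.8 and 64.5 CPM in WT. The groups were separate in the order OA, DNL, WT. MKI67 was 2.68-fold higher in OA (adjusted p = 2.06e-10) and 1.48-fold higher in DNL (adjusted p = 1.14e-06), each relative to WT. TOP2A, the topoisomerase that untangles replicated chromosomes, had 129, 130.3 and 135 CPM in DNL, 172, 154 and 145 CPM in OA, and 103, 99.6 and 99.96 CPM in WT, in the same order. It rose by 0.64 (adjusted p = 8.35e-07) in OA and 0.38 (adjusted p = 9.34e-05) in DNL on the log2 scale, each relative to WT. In DNL, MKI67 and TOP2A were thus higher than in WT while PLK1, AURKA, BUB1 and BIRC5 were lower.

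Set directly against OA, members of replication and of mitosis were lower in DNL. After CDC6, the lowest log2 differences were those of TTK at -1.81 (SE 0.148, adjusted p = 2.17e-07), CDT1 at -1.48 (SE 0.0815, adjusted p = 4.94e-09), CDC20 at -1.40 (SE 0.0900, adjusted p = 2.12e-08), AURKB at -1.37 (SE 0.166, adjusted p = 9.41e-06) and CENPE at -1.32 (SE 0.0985, adjusted p = 9.29e-08). PLK1 lay lower by 1.23 (SE 0.0562, adjusted p = 7.97e-10), KIF20A by 1.22, ECT2 by 1.18, KIF23 by 1.17 and TPX2 by 1.15, all on the log2 scale and all called. In each of these 11 genes the highest DNL sample was below the lowest OA sample. Smaller called differences were those of MCM3, at -0.24 (adjusted p = 0.00212), and TOP2A, at -0.25 (adjusted p = 0.00190). For TYMS the difference was -0.16, with a 95% interval of -0.40 to 0.07, and for RRM2 -0.68, with an interval of -1.98 to 0.63, neither of them called. With scaling by library totals TYMS was called lower in DNL than in OA (log2 -0.40, adjusted p = 0.00506).

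Other genes of the same pathways were counted from longer lists, also chosen with earlier results of these data known. In OA against WT, 39 of 55 other replication genes rose (70.9%, beside 30.4% of all genes) and 3 fell (5.45%, beside 29.7%), with a median log2 fold change of 0.62. In DNL against WT, 31 rose (56.4%, beside 27.1%) and 6 fell (10.9%, beside 26.8%), with a median of 0.40, and in DNL against OA 5 were higher (9.09%, beside 31.9%) and 26 lower (47.3%, beside 30.9%), with a median of -0.35. With scaling by library totals, DNL against WT had 23 higher and 8 lower, beside 2505 and 5265 of all 13636 genes. Under that scaling DNL against OA had 4 higher and 37 lower, beside 2958 and 5773 of all genes. TK1, the thymidine kinase of S phase, had 15.3, 16 and 15.5 CPM in DNL, 25, 29.4 and 30.04 CPM in OA, and 5.23, 5.96 and 4.79 CPM in WT, 5.28-fold higher in OA (adjusted p = 2.02e-09) and 2.92-fold higher in DNL (adjusted p = 1.32e-07), each relative to WT. UHRF1, which recruits the maintenance DNA methyltransferase to newly copied DNA, was 2.43-fold higher in OA (adjusted p = 2.19e-09) and 1.9-fold higher in DNL (adjusted p = 4.80e-08), each relative to WT. The origin recognition genes ORC2 and ORC3 went the other way in OA. ORC2 had 68.2, 66.8 and 65.1 CPM in DNL, 51.9, 45.3 and 42.5 CPM in OA, and 81.3, 81.1 and 82.4 CPM in WT, lower in OA (log2 -0.81, adjusted p = 3.61e-07) and in DNL (log2 -0.29, adjusted p = 0.00204) than in WT. ORC3 was lower in OA than in WT (log2 -0.63, adjusted p = 1.04e-04) and higher in DNL than in OA (log2 0.94, adjusted p = 2.60e-06). FEN1, the flap nuclease of lagging strand synthesis, and ORC6, a subunit of the origin recognition complex, had the smallest adjusted p among those lower in DNL than in OA, with log2 differences of -1.51 (adjusted p = 1.71e-09) and -1.57 (adjusted p = 8.83e-07). RECQL4, a helicase of replication initiation, was lower in DNL than in WT (log2 -0.34, adjusted p = 0.00254).

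In OA against WT, 52 of 59 other mitosis genes rose (88.1%, beside 30.4% of all genes) and 1 fell (1.69%, beside 29.7%), with a median log2 fold change of 0.78. In DNL against WT, 10 rose (16.9%, beside 27.1%) and 21 fell (35.6%, beside 26.8%), with a median of -0.17. With scaling by library totals 4 rose and 30 fell, beside 2505 and 5265 of all 13636 genes. In DNL against OA 0 were higher and 51 lower (86.4%, beside 30.9%), with a median of -1.01. MYBL2, the B-Myb factor that acts with FOXM1, had 26.2, 28.7 and 25.4 CPM in DNL, 77.7, 82.6 and 77.9 CPM in OA, and 13.9, 15.1 and 13.7 CPM in WT. It was 5.6-fold higher in OA (adjusted p = 2.83e-11) and 1.88-fold higher in DNL (adjusted p = 3.01e-07), each relative to WT. HMMR, a spindle-associated hyaluronan receptor, had 11.1, 9.85 and 9.93 CPM in DNL, 15, 16.8 and 17.3 CPM in OA, and 23.9, 25.2 and 22.6 CPM in WT, below WT in DNL by 1.21 (SE 0.0965, adjusted p = 3.03e-07) and in OA by 0.55 (SE 0.0961, adjusted p = 2.82e-04) on the log2 scale. WEE1, the kinase that restrains CDK1, had 35.2, 35.5 and 39.4 CPM in DNL, 87, 96.3 and 101 CPM in OA, and 69.9, 72 and 72.9 CPM in WT, lower in DNL than in WT (log2 -0.96, adjusted p = 8.30e-08) and than in OA (log2 -1.37, adjusted p = 1.90e-09). KIF18B, a microtubule-depolymerizing kinesin, was 2.65-fold higher in OA than in WT (adjusted p = 5.64e-08). CKAP2, a spindle microtubule protein, was 1.31-fold higher in DNL than in WT (adjusted p = 1.47e-04).

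Of 15 inhibitors of the cell cycle and pocket protein partners, 14 were tested. In OA against WT 7 rose and 2 fell (median log2 0.46), a share of calls near the 60% of all genes. In DNL against WT 7 rose and 5 fell (median 0.18), beside 53.8% of all genes called, and in DNL against OA 3 were higher and 9 lower (median -0.54), beside 62.8%. CDKN1A, the p53-regulated inhibitor of cyclin-dependent kinases, had 268, 275 and 311 CPM in DNL, 297, 356 and 363 CPM in OA, and 158, 165 and 159.7 CPM in WT, and DNL and OA overlapped above WT. It was 1.77-fold higher in DNL than in WT (adjusted p = 3.59e-06). CDKN1B, which encodes the inhibitor p27, had 51.7, 50.2 and 49.4 CPM in DNL, 86.7, 98.5 and 91.6 CPM in OA, and 91.2, 91.1 and 90.6 CPM in WT, and was lower in DNL than in WT (log2 -0.85, adjusted p = 4.75e-08) and than in OA (log2 -0.87, adjusted p = 2.36e-08). CDKN2B, an inhibitor of CDK4 and CDK6, was 3.85-fold higher in OA than in WT (adjusted p = 1.06e-07). The antiproliferative genes BTG1 and BTG2 differed, with BTG1 2.85-fold higher in OA than in WT (adjusted p = 1.36e-07) and lower in DNL than in OA (log2 -1.84, adjusted p = 1.95e-08), and BTG2 1.77-fold higher in DNL than in WT (adjusted p = 2.24e-06). E2F5, a repressor E2F, had 27.9, 30.3 and 30.1 CPM in DNL, 13.3, 15.8 and 15.3 CPM in OA, and 35.7, 40.2 and 37.3 CPM in WT, and was lower in OA than in WT (log2 -1.34, adjusted p = 4.60e-08). RBL2, its pocket protein p130, was lower in OA than in WT (log2 -0.36, adjusted p = 0.00225). FZR1, which activates the anaphase-promoting complex after mitosis, was lower in DNL than in WT (log2 -0.37, adjusted p = 8.88e-04).

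**Figure D5:**
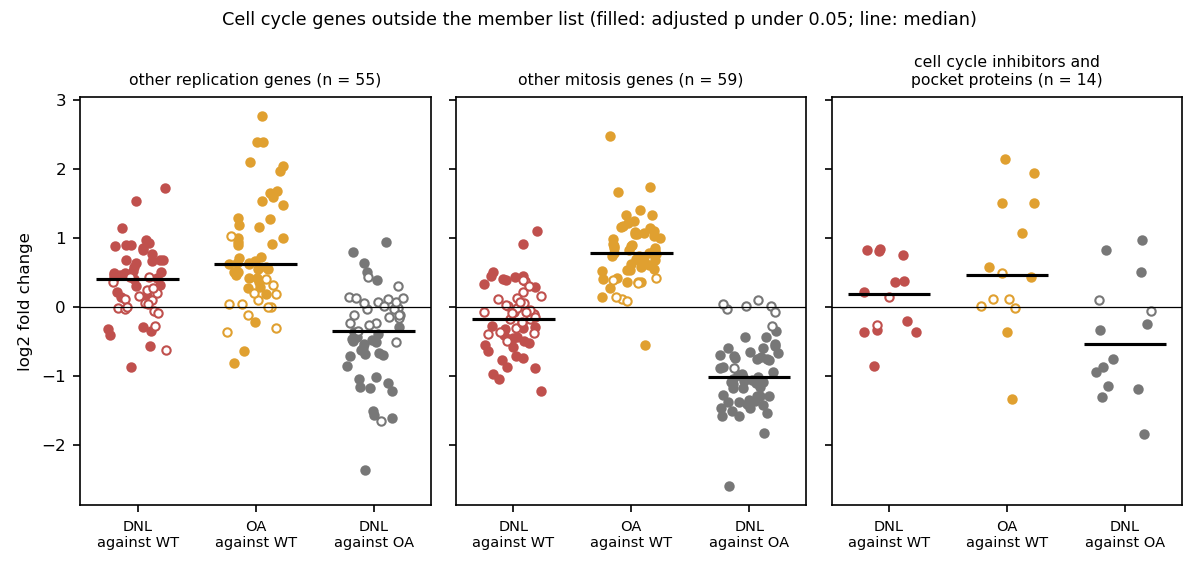
Log2 fold changes of 55 other replication genes, 59 other mitosis genes and 14 inhibitors and pocket protein genes in DNL against WT, OA against WT and DNL against OA, 1 point a gene, filled where called. Lines are medians, which for the other mitosis genes are -0.17, 0.78 and -1.01.

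The libraries were stranded by kit, but whether the counting used strand is not given in the sources used here. In the annotation 11 members overlap another gene of the table, all on the opposite strand, so whether reads of the partners were separated is not known for ANLN, MCM2, FOXM1, KIF20A, CDK2, GINS2, CCNA2, CDC25C, MCM7, PLK1 and TYMS.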

How the data were processed

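Per the labels' protocols, total RNA of 9 HepG2 samples went into stranded libraries after removal of ribosomal RNA. The authors deposited 1 table of estimated counts per gene, and the submitters' processing notes name FastQC 0.11.9, kallisto 0.48.0 and the build GRCh38. Neither the annotation release nor the strand setting of the counting is given in the sources used here, so transcripts that overlap or have near-identical copies may share reads. Sample titles gave the groups and each sample's own treatment label its treatment, since the shared protocol text describes the DNL recipe for all samples.

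Estimated counts were rounded and filtered with filterByExpr, which left 13636 of 19317 genes. Scaling was by trimmed mean of M values (TMM), and genes were tested in 1 fit of all 9 samples by edgeR 4.0.16 (quasi-likelihood test) in R 4.3.3, with robust dispersions. Calls were made at a Benjamini-Hochberg adjusted p under 0.05 over all genes tested. Levels are CPM, printed with the SD over 3 samples where averaged, and SE, taken from the F statistic, belongs to the log2 fold change. Library totals lay between 16447398 and 36147431 for DNL, between 7836520 and 28636903 for OA and between 26425694 and 43043347 for WT. A count of 0 allows up to 3 counts, which is 0.383 CPM in the shallowest library and 0.0697 CPM in the deepest. These limits cover counting error only. Between replicates the common dispersion was 0.0112, and the chi-square per degree of freedom between 2 replicates was 5.4 to 16.3, above sampling noise in every pair.

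The members and lists were chosen with earlier results of these data known. Every member is named, with the value in every sample for 16 members chosen by role, for those that moved against their role group in DNL, for those called in no comparison, and for the highest and lowest of each comparison. A few more are given in full or as means for comparison with these. From the other lists the rule took the 2 smallest adjusted p in each direction and comparison. Gene coordinates are those of GENCODE release 29 on GRCh38, and promoter windows those of RefSeq on GRCh38.p14. Simulated counts with 200 changed genes were used to check the procedure. Alternatives were other scalings, no filter, limma 3.58.1 with voom, DESeq2 1.42.0, separate fits, a replicate block, leaving out libraries, and thinning to the shallowest total.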

Additional observations from a re-analysis of the deposited data

How the results depend on the processing

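Across 19 alternatives, 450 of 456 summary values stayed close to those reported, counts within 1.5 times and medians within the spread between replicates. Counts on the lists of other genes ignored direction there. For the other mitosis genes in DNL against WT, 10 higher and 21 lower thus passed as close to 4 higher and 30 lower with scaling by library totals. Of 126 results on single members, 101 kept their direction and side of the threshold under all 19 alternatives. No called member turned its direction under any alternative. The members higher in OA than in WT numbered 32 to 36, and those lower in DNL than in OA 34 to 39. In DNL against WT, 13 to 16 were higher and 9 to 18 lower, the 18 under scaling by library totals, where 2505 of all genes were higher and 5265 lower, against 3692 and 3650. Scaling by library totals turned the members' median log2 fold change in DNL against WT to -0.075 and moved that in DNL against OA to -0.98. The distance of the members' median from the median of all genes in DNL against WT stayed 0.11. A change of scaling shifts all genes nearly alike, so this distance could hardly move and tells nothing on the scaling. Thinning to the shallowest total moved the DNL against OA median to -0.79. Leaving out 1 replicate at a time gave -0.80 to -0.72 for that median. Keeping only the OA library with the least collagen transcript, an alternative chosen after seeing the data, moved the median to 0.96 in OA against WT and to -0.86 in DNL against OA. That lone library was assumed to vary like the other groups.

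No pairing by replicate number was seen, with correlations of same-numbered deviations between -0.018 and 0.053. Deviations of samples with different numbers were not compared, so this does not settle whether samples were paired. A fit with the replicate number as a block had 35 members rise in OA against WT, 16 rise and 12 fall in DNL against WT, and 36 lower in DNL than in OA. Under the block, CDC25A in OA against WT (adjusted p = 0.0543) and CENPE in DNL against WT (0.0571) were not called, and KIF23 in DNL against WT was (0.0359). Depth limits the smaller differences: thinning to the shallowest total ended 9 calls on members, those of CCNB1 and CDC25A in OA against WT and of GINS2, FOXM1, CCNA2, CCNB1, CDC25A, CDC25C and CENPE in DNL against WT, and added 1, TTK in DNL against WT.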
